A study of Oryza sativa Japonica Group with 41 samples.

Results

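The regions described here are stretches of the rice genome whose H3K9ac in leaves was highest at ZT6, 6 h into the day. H3K9ac is acetylation of lysine 9 of histone H3. Histone acetyltransferases add the acetyl group, histone deacetylases remove it, and in plants the mark lies mainly over the starts of genes that are being transcribed. Butyryllysine (Kbu) and crotonyllysine (Kcr) are longer acyl groups on histone lysines, made from other acyl-CoA molecules, and they can lie over the same genes. Zeitgeber time (ZT) counts hours from the moment the light comes on, and the growth protocol gives 16 h of light and 8 h of dark, so that ZT18 falls in the night.

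The samples were leaves of untreated DongJin rice, a japonica cultivar, with 30 days as their labelled age, taken at ZT0, ZT6, ZT12 and ZT18 with 2 H3K9ac libraries at each time. Seedling leaves of the same cultivar at 12 days, without root or endosperm, gave 2 libraries each for H3K9ac, Kbu and Kcr after 48 h of continuous darkness (starvation), after 6 h of submergence and without treatment (control), and 1 input library came from untreated seedlings. All seedling samples are labelled ZT12. The Kbu and Kcr antibodies recognise the modified lysine without naming a histone position.

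Peaks of the 8 leaf libraries that overlapped by at least 1 bp were merged, and 18346 merged regions had a peak in every library. The tags (aligned reads counted in the peaks) of a library were summed in each region and scaled to 1000000 over these 18346 regions, and the result is called scaled tags below. A region was chosen where its mean was highest at ZT6, where the log2 ratio of the ZT6 mean to the mean of its lowest time was at least 0.8, and where both ZT6 libraries lay above both libraries of that lowest time. This rule chose 1032 regions, 5.63% of the 18346. The same rule chose 840 regions for ZT0, 1471 for ZT12 and 686 for ZT18. All leaf values of the 1032 regions are descriptions and were not tested, because the rule used them.

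The leaf libraries held between 5914314 and 16232431 tags, and replicate 2 of ZT18 was the shallowest. The 2 replicates of a time correlated with r between 0.941 and 0.976 over the 18346 regions. The seedling H3K9ac replicates stood apart from all other pairs. Their peak lists shared 14.2% of exact start positions in starvation, 5.90% in submergence and 4.85% in control, against 0.227% to 0.675% in the other 10 replicate pairs. The tag counts of the 2 H3K9ac starvation libraries differed by less than the sampling noise (chi-square of 0.891 per degree of freedom over 18611 regions), and these libraries were counted as 1 sample in an added fit. The chi-square was 1.24 for H3K9ac in submergence, 1.41 in control and between 1.88 and 7.23 in the other pairs. The main counts of H3K9ac changes in seedlings are therefore given with the replicates apart and also with the replicates of each H3K9ac group summed and counted as 1 sample. Counts for the other leaf sets, for marks changing together, by lowest leaf time and with called length are given with the replicates apart only. So are most p values of single regions, and all of these take the replicates as separate samples.

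In the median ZT6-highest region, the level at ZT0 was 54.1% of that at ZT6, the level at ZT12 was 60.0% and the level at ZT18 was 51.3%. The lowest time was ZT0 in 386 regions, ZT12 in 269 and ZT18 in 377. The log2 ratio of ZT6 to the lowest time had a median of 1.18, which is 2.26-fold, and it reached 2 in 124 regions and 3 in 15. Both ZT6 libraries lay above all 6 other libraries in 689 regions (66.8%). They lay above both ZT18 libraries in 990 regions, above both ZT0 libraries in 869 and above both ZT12 libraries in 856. The rule itself required this for the lowest time, which was ZT18 in 377 regions, ZT0 in 386 and ZT12 in 269. These counts were not made over all 18346 regions.

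The ZT6-highest regions differed in how they came down from ZT6. In the 386 regions with their lowest level at ZT0, ZT12 still held 80.0% of the ZT6 level in the median region, ZT18 held 57.3% and ZT0 held 45.2%. In the 269 regions lowest at ZT12, ZT0 already held 78.4% of the ZT6 level, ZT12 held 45.3% and ZT18 held 57.3%. In the 377 regions lowest at ZT18, ZT0 held 57.1%, ZT12 held 59.4% and ZT18 held 41.2%. The second-highest time was ZT12 in 551 regions, ZT0 in 425 and ZT18 in 56. ZT18 was seldom next to ZT6 in level, and which of ZT0 and ZT12 stayed closer to ZT6 varied between regions.

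**Figure D1:**
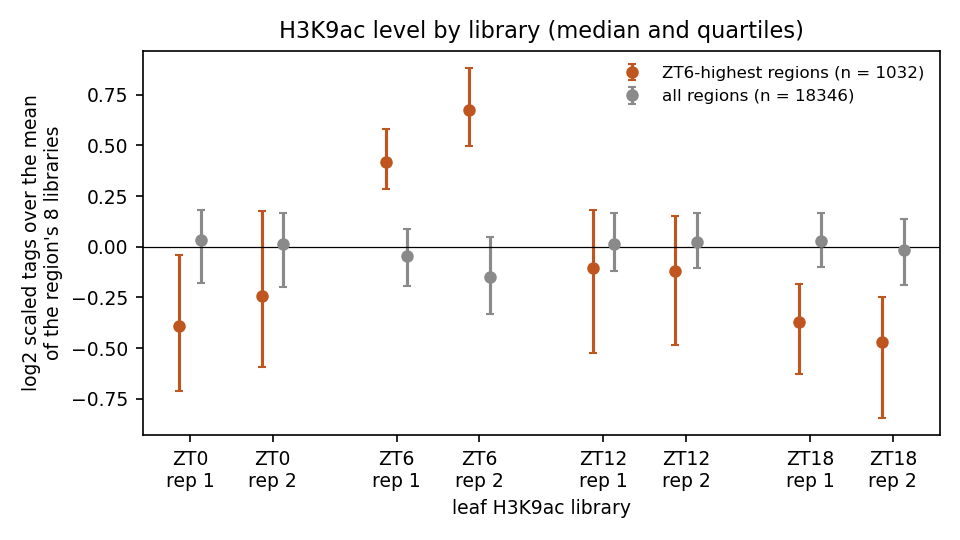
H3K9ac of each leaf library (x axis) as the log2 ratio of its scaled tags to the mean of the 8 libraries in the same region (y axis), with the median (point) and quartiles (bars) over the 1032 ZT6-highest regions and over all 18346 regions. The ZT6 libraries have medians of 0.42 and 0.68 in the ZT6-highest regions and of -0.05 and -0.15 in all regions.

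By library, the median scaled tags of the 1032 regions were 49.5 and 53.6 at ZT0, 89.9 and 113 at ZT6, 55.7 and 56.4 at ZT12, and 48.2 and 44.9 at ZT18. Over all 18346 regions the medians lay between 40.6 and 45.6 in the 8 libraries. Replicate 2 of ZT6 was higher than replicate 1 in the median ZT6-highest region, and the gap between these replicates was larger than that at any other time. Each ZT6 median lay above all 6 medians of the other times.

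The region with the largest ratio was chr11:7655234-7663158 (rank 1 in the plot of the top 12 regions, MSU7.0 coordinates), whose scaled tags were 213 and 229 at ZT0, 369 and 494 at ZT6, 184 and 209 at ZT12, and 31.2 and 21.5 at ZT18. This region was high through the day and 16.4-fold lower at ZT18 than at ZT6. The region chr2:3270769-3277755 (rank 3) had 82.7 and 153 at ZT0, 294 and 378 at ZT6, 64.5 and 69.0 at ZT12, and 21.6 and 21.5 at ZT18. At chr7:4565912-4570880 (rank 5) the scaled tags were 97.6 and 104 at ZT0, 243 and 288 at ZT6, 41.8 and 32.7 at ZT12, and 17.7 and 20.0 at ZT18. These 3 regions all had their lowest level in the night.

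Other regions among the 12 had a narrower peak at ZT6. At chr1:43114937-43122668 (rank 7) the scaled tags were 20.6 and 38.3 at ZT0, 253 and 354 at ZT6, 35.4 and 33.7 at ZT12, and 26.5 and 20.0 at ZT18. At chr8:19578521-19583443 (rank 9) they were 10.4 and 25.3 at ZT0, 202 and 248 at ZT6, 75.1 and 66.5 at ZT12, and 27.5 and 19.3 at ZT18. At chr5:21188284-21193646 (rank 10) they were 18.5 and 16.9 at ZT0, 160 and 186 at ZT6, 80.0 and 75.5 at ZT12, and 15.1 and 14.0 at ZT18. In these 3 regions both ZT6 libraries lay above all 6 others, and ZT0 was as low as the night or nearly so.

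Another kind of profile was high from ZT0 to ZT6 and low afterwards. At chr8:8759737-8764332 (rank 2) the scaled tags were 67.3 and 89.9 at ZT0, 132 and 173 at ZT6, 9.38 and 9.78 at ZT12, and 11.4 and 11.1 at ZT18. At chr6:31025402-31029819 (rank 8) they were 243 and 255 at ZT0, 327 and 372 at ZT6, 19.5 and 35.9 at ZT12, and 42.9 and 26.8 at ZT18. At chr4:29452634-29459937 (rank 6) they were 195 and 330 at ZT0, 299.7 and 323 at ZT6, 22.5 and 24.9 at ZT12, and 87.1 and 56.2 at ZT18. In the last of these the ZT0 and ZT6 libraries overlapped, and its ZT12 libraries lay far below both.

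The remaining regions of the 12 were chr3:29983330-29991308 (rank 4), chr11:16446454-16450328 (rank 11) and chr5:6387342-6394740 (rank 12), with ratios of 14.3-fold, 10.6-fold and 9.52-fold. The ZT6 replicates of the rank 4 region, at 122 and 291 scaled tags, were the least alike among the 12. Of the 12 regions, 7 were lowest at ZT18, 3 at ZT12 and 2 at ZT0. Genes at these positions were not analysed here, since no annotation of MSU7.0 was used.

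**Figure D2:**
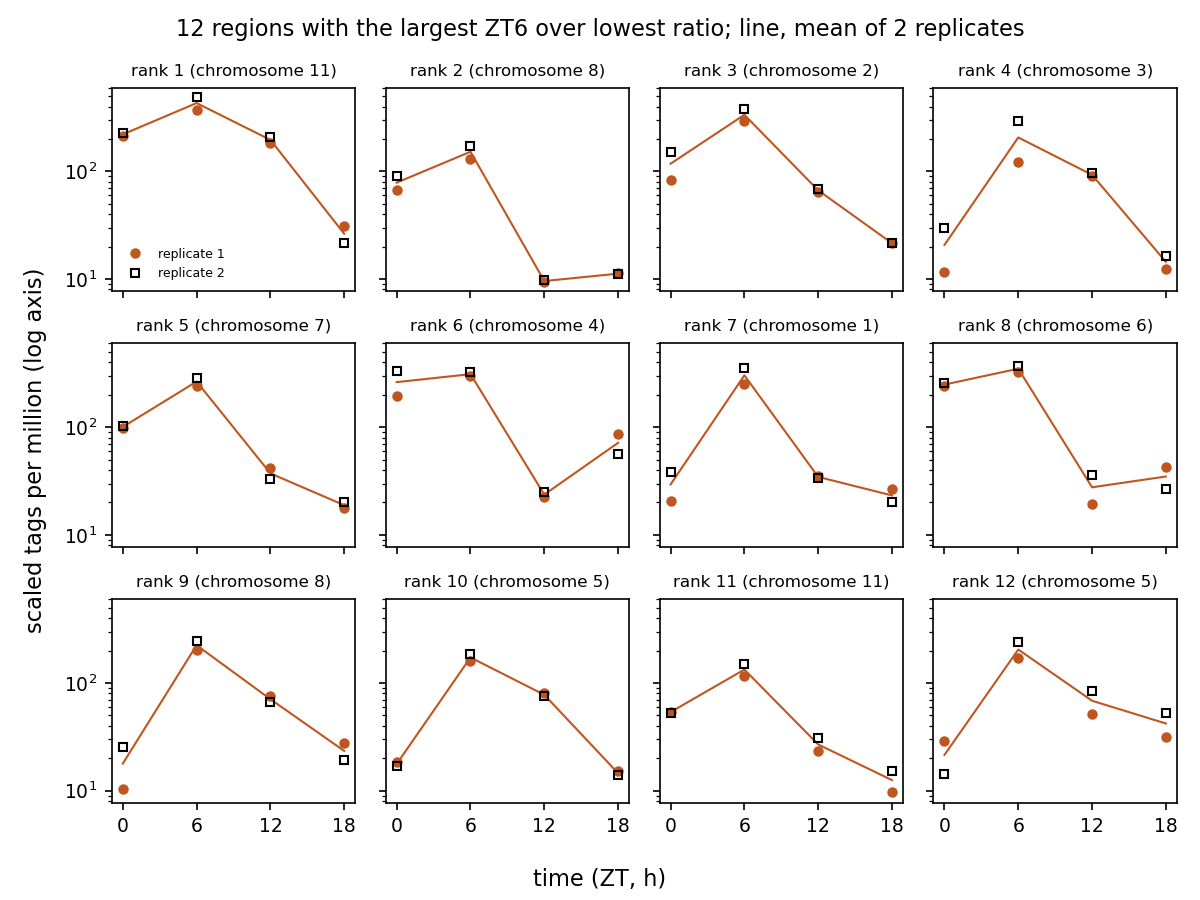
Scaled tags per 1000000 (y axis, log scale) at ZT0, ZT6, ZT12 and ZT18 (x axis) in the 12 ZT6-highest regions with the largest ratio, with 1 point per replicate and a line through the means of 2. The mean at ZT6 is the highest in each panel, and the lowest time is ZT18 in 7 of the 12.

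At the limit of the rule the differences were small. The regions just inside were chr7:797157-799839, chr4:14825180-14827128 and chr12:4460563-4464152, each with a log2 ratio of 0.80. The first of these had 71.4 and 81.4 scaled tags at ZT0, 76.3 and 93.8 at ZT6, 47.8 and 49.8 at ZT12, and 55.2 and 66.9 at ZT18, so that its ZT0 and ZT6 libraries overlapped. The regions just outside were chr2:21124546-21132984, chr1:38114039-38117244 and chr5:27074771-27078658, also with ratios of 0.80 after rounding. In all, 1653 regions were highest at ZT6 with a ratio below the limit, and 2 passed it with libraries that overlapped.

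The length of the called peaks made up the larger part of most ratios. The median called length of the ZT6-highest regions was 2995 bp at ZT6 and 1509 bp at the lowest time, and it was longer at ZT6 in 1031 of 1032 regions. The median log2 ratio of ZT6 to the lowest time was 0.83 for the length and 0.42 for the scaled tags per kb of called peak, and the length had the larger part in 769 regions (74.5%). The scaled tags per kb were higher at ZT6 in 894 regions (86.6%). The rule required a higher tag sum at ZT6, so a longer or denser peak there follows from the rule. These counts were not made over all 18346 regions. The fold enrichment of the tallest peak, which MACS computes over the local background, had a median of 6.60 at ZT6 and 6.86 at the lowest time.

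The summit of the tallest peak moved by a median of 52.8 bp between ZT6 and the lowest time, close to the 40.0 bp between the 2 ZT6 replicates.

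**Figure D3:**
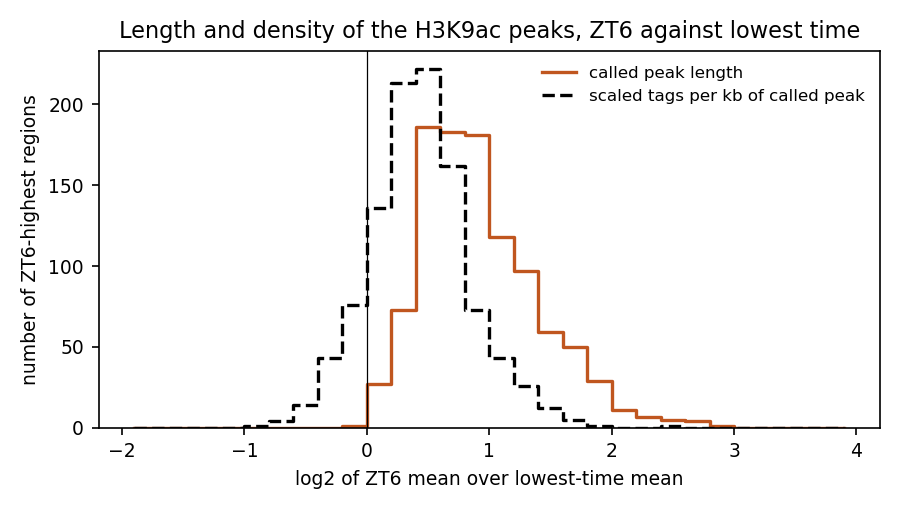
Number of ZT6-highest regions (y axis) by the log2 ratio of the ZT6 mean to the lowest-time mean (x axis), for the called peak length (solid) and the scaled tags per kb of called peak (dashed). The medians are 0.83 and 0.42, and 1031 of 1032 regions lie above 0 for the length.

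The peaks of a leaf library covered between 26315529 and 38461921 bp, with 33128888 and 38461921 bp in the ZT6 libraries. The median called length of the ZT6-highest regions was 1628 and 1977 bp at ZT0, 2476 and 3494 bp at ZT6, 1964 and 2004 bp at ZT12, and 1708 and 1351 bp at ZT18, against 1141 to 1494 bp for all regions. With scaled tags per kb in place of summed tags, 156 regions met the rule, among them 146 of the 1032. Without replicate 2 of ZT6, which had the widest coverage, 888 regions met it, and 719 of the 1032 (69.7%) were among them.

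The ZT6-highest regions were broad as merged regions. A merged region spans the peaks of all 8 libraries, so its length is not separate from that of the ZT6 peaks. Their median length was 3538 bp against 1603 bp for all 18346 regions, and 61.3% were longer than 3000 bp against 12.2%. The regions highest at ZT0 had a median of 2234 bp, those highest at ZT12 one of 1716 bp and those highest at ZT18 one of 1720 bp. The mean over the 8 libraries had a median of 67.7 scaled tags in the ZT6-highest regions and 44.7 in all regions. Per kb of called peak the order was the other way, with 30.2 in the ZT6-highest regions and 31.6 in all regions, so that their higher sums came with longer peaks. A single peak in every library was found in 76.3% of the ZT6-highest regions and 93.8% of all regions.

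The ZT6-highest regions lay on all 12 chromosomes. They made up 6.80% of the regions of chromosome 5, 6.77% of those of chromosome 1 and 6.20% of those of chromosome 3, against 4.30% on chromosome 11 and 4.50% on chromosome 6. Within chromosomes, 64.7% lay in the outer 50% of the length against 59.1% of all regions. The next merged region was at a median distance of 5093 bp from a ZT6-highest region and 5870 bp over all regions. A direct neighbour was also ZT6-highest for 207 of the 1032 (20.1%), against 19.05% for the ZT0-highest, 23.2% for the ZT12-highest and 19.2% for the ZT18-highest regions in their own sets. The longest run held 4 adjacent regions at chr5:2145328-2185375, a span of 40048 bp, with log2 ratios between 0.85 and 1.87.

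Most ZT6-highest regions were also marked in untreated seedlings, at lower shares than all leaf regions. Both control libraries had an H3K9ac peak in 882 of the 1032 regions (85.5%, against 93.6% of all 18346), a Kbu peak in 929 (90.0%, against 95.4%) and a Kcr peak in 924 (89.5%, against 95.4%). All 3 marks were present in 845 regions (81.9%, against 92.1%). Kbu and Kcr in both control libraries with H3K9ac in neither were found in 33 regions (3.20%, against 1.31%), and 20 regions (1.94%, against 1.75%) had no peak in any of the 18 seedling libraries. The share with H3K9ac was 86.7% for the ZT0-highest, 91.1% for the ZT12-highest and 91.3% for the ZT18-highest regions. With a score of at least 100 the ZT6-highest regions had H3K9ac in 71.8%, Kbu in 82.3% and Kcr in 76.9%.

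The 12 regions with the largest ratio were marked less evenly in seedlings. Both control libraries had an H3K9ac peak in 8 of them, a Kbu peak in 9 and a Kcr peak in 7, and 3 had no control peak of any mark. These 3 were the regions of rank 4, 8 and 12, which had 122 to 372 scaled tags at ZT6 in leaves. The seedlings differed from the leaves in age and stage and were labelled ZT12 only, and these cannot be told apart.

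Where they were marked in seedlings, the ZT6-highest regions had less signal per kb than all leaf regions together. In untreated seedlings the median tags per 1000000 (CPM) per kb of called peak were, for H3K9ac, 26.2 and 25.5 in 697 ZT6-highest regions, against 30.3 and 29.3 in the 16226 leaf regions that all 6 H3K9ac libraries had a peak in. For Kbu they were 18.1 and 19.6 in 863 ZT6-highest regions against 22.9 and 25.4 in 17254 leaf regions. For Kcr they were 20.7 and 20.1 in 854 ZT6-highest regions against 25.8 and 25.6 in 17204 leaf regions. For each mark both control libraries of the ZT6-highest regions lay below both of the wider set. This held for the regions highest at the other times as well. Their H3K9ac values were 23.9 and 23.5 (ZT0-highest), 26.1 and 25.3 (ZT12-highest) and 26.4 and 25.5 (ZT18-highest). Their Kbu values lay between 19.6 and 22.3, and their Kcr values between 21.6 and 22.7.

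The balance of the marks was about the same. H3K9ac made up a median of 38.6% and 37.5% of the summed level per kb of the 3 marks in the 669 ZT6-highest regions that were called in each of the 18 seedling libraries, against 38.0% and 36.1% in 15957 leaf regions. These differences were smaller than the gap between the replicates of all leaf regions. Over 697 ZT6-highest regions the log2 level of H3K9ac in untreated seedlings had Pearson's r of 0.39 with the leaf level at ZT0, 0.47 at ZT6, 0.55 at ZT12 and 0.52 at ZT18. These values are a description across regions, which share the seedling libraries and their called lengths, and the seedlings were labelled ZT12.

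To see how the same regions behaved when light or air was withheld, the seedling regions that overlapped them most were taken from fits over all seedling regions. Within a mark, regions called in each of its 6 libraries entered a quasi-likelihood fit of their tags in edgeR, and an adjusted p under 0.05 was the limit. Of the 1032 regions, the H3K9ac test could take 697, the Kbu test 863 and the Kcr test 854. The rest had no peak in at least 1 of the 6 libraries of the mark, and 1012 overlapped a seedling region at all. Starvation and submergence were set against the same control libraries. The labels do not say that the replicates were separate cultures, so the p values measure only the spread between these libraries.

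After 48 h of darkness H3K9ac of the ZT6-highest regions fell more often than it rose in the test of the summed tags, and the balance turned round when called length was taken into the fit. Of the 697 regions tested, 262 fell (37.6%, with 20.9% of all 18611 seedling regions as background) and 98 rose (14.1%, background 18.3%). The median log2 fold change was -0.18 against 0.00 over all regions tested, and it was -0.21 and -0.19 in the 2 replicates set against the control of the same number. With the replicates of each H3K9ac group summed, 202 of 669 fell (30.2%, background 13.9%) and 69 rose (10.3%, background 11.0%). With only the starvation replicates summed, 264 of 697 fell (background 20.7%) and 94 rose (background 16.5%). Levels lower by at least 1.5-fold, counted with no test, were seen in 166 regions (23.8%, background 9.74%) and levels higher by as much in 47 (6.74%, background 4.48%).

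H3K9ac fell in 39.6% of the ZT12-highest, 30.3% of the ZT18-highest and 21.9% of the ZT0-highest regions tested after starvation. The size of the ZT6 maximum was hardly related to the change, with Pearson's r of 0.03 across the 697 regions, as a description. The 55 regions with a log2 ratio of 2 or more had a median change of -0.16, against -0.21 in the 239 regions below 1.

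Sequencing depth and called length moved with the H3K9ac change in darkness. The starvation libraries held 5631625 and 6480371 tags against 10581295 and 11985500 in the control libraries. The median called length of the 697 regions was 1343 and 1427 bp after starvation against 1864 and 1917 bp in control, while over 16226 leaf regions it was 1255 and 1308 bp against 1546 and 1590 bp. With the called length taken into the fit, 56 regions fell (8.03%, background 2.92%) and 288 rose (41.3%, background 50.6%), and the median was 0.22 in the ZT6-highest and 0.29 in all regions. The direction turned round for both sets, and the part of depth in the result was not tested. The control tags were alike, with medians of 209 and 238 in the 697 regions and 206 and 234 in the wider set.

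Kbu was called changed in fewer of the ZT6-highest regions than H3K9ac. After starvation Kbu fell in 206 of 863 regions (23.9%, background 16.6%) and rose in 121 (14.0%, background 12.5%), with a median log2 fold change of -0.06. The 17254 leaf regions tested for Kbu had 9.82% that fell and 15.1% that rose. The balance of Kbu depended on the scaling, in all regions as in the ZT6-highest ones. With the tags MACS used as library sizes 133 fell (15.4%, background 9.88%) and 166 rose (19.2%, background 16.1%), and with called length in the fit 96 fell (11.1%, background 6.78%) and 86 rose (9.97%, background 7.73%). Kbu was lower by at least 1.5-fold in 107 regions (12.4%, background 7.66%) and higher in 36 (4.17%, background 1.37%). Kcr changed least. It fell in 56 of 854 regions (6.56%, background 2.27%) and rose in 32 (3.75%, background 1.41%), with a median of 0.02, and with the tags MACS used as library sizes 25 fell (2.93%, background 1.09%) and 56 rose (6.56%, background 2.51%). With called length in the fit Kcr fell in 44 (5.15%, background 2.01%) and rose in 7 (0.820%, background 0.338%). Kcr was lower by at least 1.5-fold in 54 regions (6.32%, background 3.42%) and higher in 37 (4.33%, background 1.47%).

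In submergence H3K9ac of the ZT6-highest regions also fell more often than it rose, with and without the called length in the fit. It fell in 232 of 697 regions (33.3%, background 18.6%) and rose in 113 (16.2%, background 14.3%), with a median log2 fold change of -0.08. The ZT18-highest regions were close to this, with falls in 31.8% and rises in 13.9%. H3K9ac fell in 23.3% of the ZT0-highest and 21.5% of the ZT12-highest regions tested in submergence. With the replicates of each H3K9ac group summed, 145 of 669 fell (21.7%, background 9.89%) and 54 rose (8.07%, background 5.96%). With called length in the fit, 118 of 697 fell (16.9%, background 7.67%) and 83 rose (11.9%, background 9.54%). Kbu fell in 99 of 863 regions (11.5%, background 5.22%) and rose in 58 (6.72%, background 4.92%). With called length in the fit 13 fell (1.51%, background 0.549%) and 265 rose (30.7%, background 27.2%), and with the tags MACS used as library sizes 186 fell (21.6%, background 12.9%) and 30 rose (3.48%, background 2.18%), so that the balance of all regions moved as well. Kcr fell in 21 of 854 regions (2.46%, background 0.931%) and rose in 19 (2.22%, background 1.41%). With called length in the fit Kcr fell in 2 (background 0.0272%) and rose in 0 (background 0.0698%), and with the replicate number as a block it fell in 9 (background 0.365%) and rose in 9 (background 0.594%). With the tags MACS used as library sizes Kcr fell in 28 (3.28%, background 1.1%) and rose in 12 (1.41%, background 1.01%). Changes of at least 1.5-fold in submergence, given with no test, were 123 lower (17.6%, background 5.77%) and 39 higher (5.60%, background 3.32%) for H3K9ac. They were 48 lower (5.56%, background 1.83%) and 36 higher (4.17%, background 2.52%) for Kbu, and 28 lower (3.28%, background 1.13%) and 30 higher (3.51%, background 3.46%) for Kcr. The share of Kcr higher by this size was near its background over all seedling regions. It was above the 1.06% of the 17204 leaf regions tested for Kcr. The submergence H3K9ac libraries held 8885442 and 11650150 tags.

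**Figure D4:**
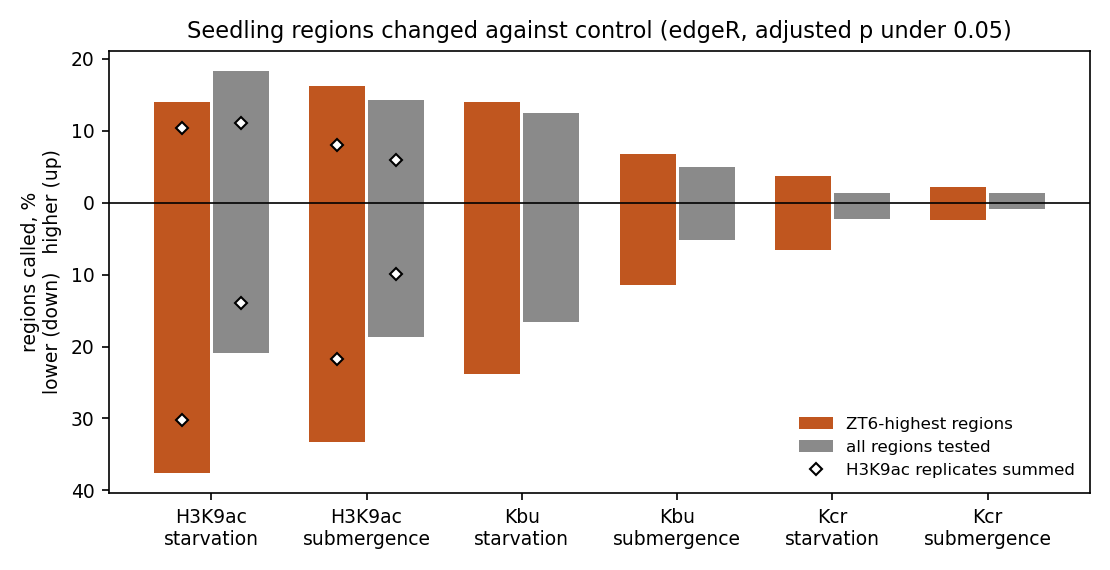
Share of regions called higher (up) or lower (down) than control, in percent (y axis), in the 6 seedling comparisons (x axis), for the ZT6-highest regions and for all regions tested, with diamonds for H3K9ac where the replicates of each group were summed. H3K9ac fell in 37.6% of the ZT6-highest regions after starvation against 20.9% of all regions, and in 33.3% against 18.6% after submergence.

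Some ZT6-highest regions changed in more than 1 mark. Of 668 seedling regions tested for all 3 marks, H3K9ac fell in 255 and Kbu in 138 after starvation, and 109 were among both, that is 42.7% of the H3K9ac falls and 79.0% of the Kbu falls. Over all 18167 seedling regions tested for all 3 marks these shares were 31.2% and 71.9%. Kcr also fell in 25 of these 109, against 183 of 1191 over all regions. H3K9ac alone fell in 145 of the 668, against 2605 of the 18167. H3K9ac and Kbu changed in opposite directions in 7 of the 668 regions after starvation and in 3 after submergence. Over all 18167 regions these counts were 67 and 27. H3K9ac rose in 94 after starvation, Kbu in 99 and both in 49 (52.1% of the H3K9ac rises and 49.5% of the Kbu rises, against 38.0% and 44.3% over all regions). In submergence H3K9ac fell in 224, Kbu in 74 and both in 62 (27.7% and 83.8%, against 19.7% and 66.2%), and H3K9ac rose in 104, Kbu in 43 and both in 27 (26.0% and 62.8%, against 14.3% and 61.7%).

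The difference between marks was tested as an interaction over the 18167 regions called in each of the 18 seedling libraries, of which 669 matched ZT6-highest regions. Called length was not taken into this fit, and its part in the counts was not tested. The H3K9ac change lay below the Kbu change in 96 of the 669 after starvation (14.3%, background 5.83%) and above it in 20 (2.99%, background 3.53%). It lay below the Kcr change in 120 (17.9%, background 7.34%) and above it in 21 (3.14%, background 4.28%). After submergence it lay below the Kbu change in 80 (12.0%, background 4.74%) and above it in 12 (1.79%, background 1.72%). It lay below the Kcr change in 95 (14.2%, background 5.82%) and above it in 15 (2.24%, background 2.06%). With the H3K9ac replicates summed these 4 counts were 52 (background 2.73%), 79 (background 3.97%), 38 (background 2%) and 59 (background 2.85%), in the same order.

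The counts after darkness varied with the time at which the leaf level was lowest, which is given as a description with no test. Among regions lowest at ZT0, H3K9ac fell in 107 of 264 (40.5%) and rose in 25 (9.47%) after starvation. Among those lowest at ZT18 it fell in 102 of 249 (41.0%) and rose in 28 (11.2%). Among those lowest at ZT12 it fell in 53 of 184 (28.8%) and rose in 45 (24.5%), with a median log2 fold change of 0.00 against -0.25 in the regions lowest at ZT0 and -0.22 in those lowest at ZT18. Kbu and Kcr also rose at their highest share among regions lowest at ZT12. Kbu rose in 54 of 234 regions lowest at ZT12 (23.1%) and fell in 33 (14.1%), while it rose in 28 of 319 lowest at ZT0 (8.78%) and fell in 98 (30.7%), and rose in 39 of 310 lowest at ZT18 (12.6%) and fell in 75 (24.2%). Kcr rose in 22 of 232 regions lowest at ZT12 (9.48%) and fell in 10 (4.31%), while it rose in 7 of 314 lowest at ZT0 (2.23%) and fell in 20 (6.37%), and rose in 3 of 308 lowest at ZT18 (0.974%) and fell in 26 (8.44%). Over all regions tested Kbu rose in 12.5% and fell in 16.6%, and Kcr rose in 1.41% and fell in 2.27%.

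**Figure D5:**
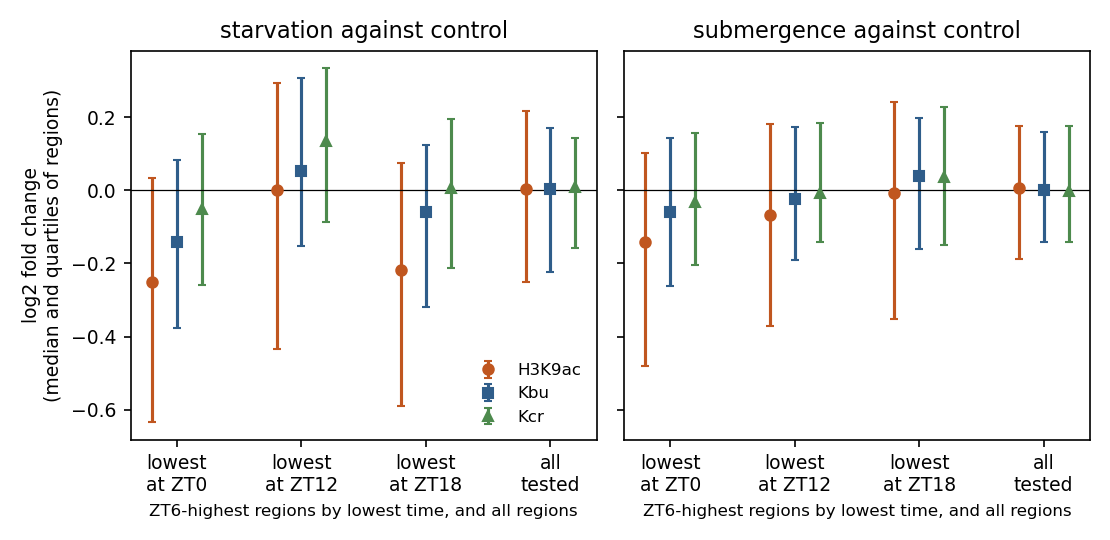
Log2 fold change against control (y axis, median and quartiles over regions) after starvation (left) and submergence (right), for ZT6-highest regions grouped by the leaf time at which they were lowest and for all seedling regions tested (x axis), with 1 symbol per mark. After starvation the H3K9ac medians are -0.25, 0.00 and -0.22 for regions lowest at ZT0, ZT12 and ZT18.

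Peaks were lost as well as reduced. Both control libraries had an H3K9ac peak and both starvation libraries had none in 84 of the 1032 regions (8.14%, against 2.65% of all 18346), and the reverse held in 27 (2.62%, against 0.943%). Such losses after starvation were seen in 7.29% of the ZT18-highest, 5.78% of the ZT12-highest and 5.24% of the ZT0-highest regions. After submergence 27 regions lost their H3K9ac peak (2.62%, against 0.670%) and 28 gained one (2.71%, against 0.878%). Kbu was lost in 13 (1.26%, against 0.442%) and gained in 8 regions (0.775%, against 0.382%) after starvation, and lost in 1 (0.0969%, against 0.202%) and gained in 12 (1.16%, against 0.311%) after submergence. Kcr was lost in 15 (1.45%, against 0.398%) and gained in 12 (1.16%, against 0.240%) after starvation, and lost in 8 (0.775%, against 0.305%) and gained in 11 (1.07%, against 0.218%) after submergence. A lost peak means that MACS called none at its limit, and the H3K9ac starvation libraries were the shallowest of the seedling libraries.

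The largest fall of H3K9ac in darkness was at chr10:20411902-20416410. Its CPM were 24.0 and 24.7 after starvation against 142 and 145 in control, a log2 fold change of -2.56 (edgeR adjusted p = 6.93e-07, and 2.27e-05 with the replicates summed). The called length was 1136 and 1192 bp after starvation against 4206 and 4445 bp in control, and Kbu fell by 0.95 and Kcr fell by 0.99 on the log2 scale at the same place (edgeR adjusted p = 0.00203 and 0.0114). At chr10:7557101-7560189 H3K9ac was at 13.9 and 13.7 after starvation against 67.7 and 68.1 in control (log2 fold change -2.30, edgeR adjusted p = 2.67e-06). In leaves both regions were lowest at ZT18.

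The largest rise of H3K9ac in darkness was at chr8:18451759-18455099, with 110 and 108 CPM after starvation against 17.6 and 16.7 in control (log2 fold change 2.67, edgeR adjusted p = 5.31e-07, and 2.41e-06 with the replicates summed). Kbu rose there by 0.58 and Kcr by 0.90 on the log2 scale (edgeR adjusted p = 0.0197 and 0.0448). In leaves the overlapping region had mean scaled tags of 22.2 at ZT0, 62.0 at ZT6, 54.6 at ZT12 and 34.8 at ZT18. At chr3:13180910-13183005 H3K9ac was at 37.0 and 36.1 after starvation against 13.8 and 12.9 in control (log2 fold change 1.45, edgeR adjusted p = 7.14e-05). In all these H3K9ac regions the starvation and control libraries did not overlap, which adds no support, as they were picked for the largest called changes.

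In submergence the largest fall of H3K9ac was at chr1:11683590-11689534, with 32.2 and 29.7 CPM against 214 and 215 in control (log2 fold change -2.80, edgeR adjusted p = 3.84e-07, and 3.27e-05 with the replicates summed). Its called length was 1366 and 1334 bp in submergence against 5565 and 5826 bp in control. At chr3:4247587-4254799 it was at 49.8 and 45.6 in submergence against 255 and 254 in control (log2 fold change -2.42, edgeR adjusted p = 4.52e-07). The largest rise was at chr7:23202493-23205722, with 90.2 and 95.9 in submergence against 22.6 and 20.5 in control (log2 fold change 2.12, edgeR adjusted p = 1.51e-06). This region was also among the largest Kbu rises in submergence, at 63.6 and 37.8 against 26.6 and 24.6 in control (log2 fold change 0.98, edgeR adjusted p = 0.0211). The next rise of H3K9ac was at chr10:21863217-21868034, with 134 and 142 in submergence against 51.2 and 51.4 in control.

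A region on chromosome 9 fell in all 3 marks. At chr9:20402472-20405909 Kbu was at 10.7 and 11.2 CPM after starvation against 51.0 and 48.4 in control (log2 fold change -2.18, edgeR adjusted p = 1.48e-05), the largest Kbu fall among the ZT6-highest regions. Kcr was at 12.7 and 13.7 after starvation and at 20.6 and 22.9 after submergence against 55.4 and 47.4 in control, log2 fold changes of -1.95 and -1.24 (edgeR adjusted p = 0.00104 and 0.00604). H3K9ac fell there by 2.23 on the log2 scale after starvation (edgeR adjusted p = 1.07e-06) and by 1.52 after submergence (edgeR adjusted p = 1.51e-06). The overlapping leaf region had mean scaled tags of 29.1 at ZT0, 50.7 at ZT6, 22.4 at ZT12 and 49.6 at ZT18, so that its ZT18 mean was nearly as high as that at ZT6.

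The other regions with the largest Kbu changes varied in their H3K9ac. The next Kbu fall in darkness was at chr9:18036145-18039494, with 13.3 and 11.6 after starvation against 47.8 and 42.8 in control, where H3K9ac had a log2 fold change of -0.67 (edgeR adjusted p = 0.0991). Kbu rose in darkness at chr4:31758542-31760087, with 30.5 and 29.5 against 14.8 and 13.5 in control, and at chr1:5476320-5480342, with 24.7 and 32.0 against 11.6 and 16.1. In submergence Kbu rose at chr8:5847733-5851064, with 31.6 and 38.7 against 12.9 and 22.0 in control. It fell in submergence at chr6:2956990-2960636, with 21.2 and 18.4 against 49.8 and 51.3, and at chr6:23940977-23944270, with 12.2 and 10.0 against 27.9 and 24.8. H3K9ac fell at the last of these by 1.11 on the log2 scale (edgeR adjusted p = 6.81e-05) and could not be tested at the one before it.

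Kcr had its largest rises at 3 places. At chr12:275695-282155 it was at 52.4 and 92.4 CPM after starvation and at 56.7 and 69.0 after submergence against 23.3 and 21.8 in control, log2 fold changes of 1.69 and 1.48 (edgeR adjusted p = 0.0136 and 0.0306). At chr4:30552946-30558871 it was at 61.9 and 42.5 after starvation against 16.9 and 15.4 in control (log2 fold change 1.69, edgeR adjusted p = 0.0465). At chr6:14078077-14081828 it was at 24.3 and 37.2 in submergence against 12.5 and 11.3 in control. The treated replicates differed from each other by more than the control replicates in these regions. The groups did not overlap, but the regions were picked for the largest called rises, so this adds no support. Kcr fell at chr5:23385896-23389125 in darkness, with 18.4 and 14.4 against 52.2 and 44.0 in control, and at chr4:13399612-13401711 in submergence, with 14.96 and 13.6 against 30.8 and 36.1.

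Of the 12 regions with the largest leaf ratio, 3 could be tested for H3K9ac in seedlings. At the rank 6 region, chr4:29452634-29459937, H3K9ac was at 128 and 130 CPM after starvation and at 87.4 and 90.8 after submergence against 53.4 and 69.8 in control, and Kbu and Kcr rose in both treatments as well. The log2 fold changes of H3K9ac were 1.06 after starvation (edgeR adjusted p = 0.000172) and 0.53 after submergence (edgeR adjusted p = 0.00579). At the rank 5 region H3K9ac was at 24.4 and 31.5 after starvation against 41.5 and 48.3 in control, and at the rank 10 region at 27.0 and 25.1 against 36.7 and 36.1, and both fell. In submergence neither of these passed the test (log2 fold changes of -0.16 and 0.19, edgeR adjusted p = 0.276 and 0.174).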

How the data were processed

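The authors aligned reads to rice MSU7.0 and called peaks with MACS 1.4.2 in each library without a control, keeping at most 1 tag per position, so replicates were not pooled. The submitters' processing notes list Trimmomatic 0.33, Bowtie2 2.2.5 and SAMtools 0.1.19. The deposited tag counts are whole reads per peak, the deposited fold enrichment is relative to the local background, and the deposited score is MACS's scaled negative log10 of the peak's p-value, at least 50 in every list. All 27 peak lists were used, and RNA-seq samples were not analysed here.

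The members and lists were chosen with earlier results of these data known. Tags were summed over regions merged at 1 bp, with n = 2 libraries per group, and seedling regions called in each of a mark's 6 libraries were tested with edgeR 4.0.16 (R 4.3.3, TMM, quasi-likelihood, Benjamini-Hochberg adjusted p under 0.05), with an interaction between mark and treatment over all 18 libraries. A leaf region took the seedling region that overlapped it most. An exact permutation test of 2 against 2 cannot go below p = 0.33, so single values have none. Scripts were tested on simulated data. Named regions are the 12 with the largest ratio, 3 on each side of the limit, and in each comparison the 2 called members with the largest rise and the 2 with the largest fall. Alternatives covered scaling, score, overlap, DESeq2 1.42.0, replicate block and left-out replicates, and fits with summed H3K9ac replicates were added after seeing the data. A tag sum grows with depth and called length, and distances to genes, motifs and gene names were not analysed here, as no MSU7.0 annotation was used.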

Additional observations from a re-analysis of the deposited data

Results flagged for a closer look

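The change of H3K9ac differed from that of the other marks in some ZT6-highest regions by a test of the difference itself, and this is why they are listed. After starvation it lay below the Kbu change in 96 of 669 regions (14.3%, background 5.83%) and below the Kcr change in 120 (17.9%, background 7.34%). After submergence it lay below the Kbu change in 80 (12.0%, background 4.74%) and below the Kcr change in 95 (14.2%, background 5.82%). The H3K9ac libraries were shallower than the Kbu and Kcr libraries and their replicates shared peak starts. Called length was not taken into this fit. After starvation the median called length was 1343 and 1427 bp for H3K9ac, against 1864 and 1917 bp in control. For Kbu it was 1611 and 1609 bp against 1814 and 1633 bp, and for Kcr 1566 and 1690 bp against 1561 and 1577 bp. The part of depth, shared starts and length in the result was not tested.

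The input library, which no comparison used, had a peak in 4 of the 1032 ZT6-highest regions (0.388%), against 100 of all 18346 regions (0.545%). Groups of 2 libraries are too small to look for a library far from the others.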

How the results depend on the processing

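Of 219 counts and shares recomputed under alternatives, 124 stayed within 1.5 times the reported count or 1 SD of the reported share and 95 moved further. The rule applied to tags per kb of called peak chose 156 regions. With DESeq2 H3K9ac rose in 36 (5.16%, background 2.998%) and fell in 136 (19.5%, background 7.37%) in starvation. These rises lay above background, while in the main fit they lay below it (14.1%, background 18.3%). With DESeq2 in submergence H3K9ac rose in 26 (3.73%, background 1.63%) and fell in 95 (13.6%, background 4.48%). Kbu with DESeq2 rose in 32 (3.71%, background 1.705%) and fell in 101 (11.7%, background 6.71%) in starvation. It rose in 18 (2.09%, background 0.967%) and fell in 35 (4.06%, background 1.31%) in submergence. Kcr with DESeq2 rose in 16 in starvation (1.87%, background 0.640%). With called length in the fit the numbers higher and lower were 288 and 56 for H3K9ac in starvation. They were 265 and 13 for Kbu and 0 and 2 for Kcr in submergence, with 118 lower for H3K9ac in submergence. In starvation they were 96 lower for Kbu and 7 higher for Kcr. With the tags MACS used as library sizes they were 30 and 186 for Kbu in submergence and 56 and 25 for Kcr in starvation, with 133 lower for Kbu in starvation and 12 higher for Kcr in submergence, and the median of all regions moved to 0.12 for Kbu and 0.15 for Kcr in starvation and to -0.17 for Kbu and -0.11 for Kcr in submergence. With a peak in at least 1 of 6 libraries Kbu rose in 72 (7.27%, background 5.49%) and fell in 124 (12.5%, background 9.01%) in starvation. Kcr rose in 19 (1.91%, background 0.799%) and fell in 26 (2.62%, background 1.80%). In submergence Kbu rose in 17 (1.72%, background 1.07%) and fell in 37 (3.74%, background 1.27%). Kcr there rose in 7 (0.704%, background 0.352%) and fell in 6 (0.604%, background 0.321%). A match over 50% of the leaf region gave 79 higher for Kbu (12.6%, background 12.5%) and 20 for Kcr (3.21%, background 1.41%) in starvation. Tags summed in the leaf regions gave 75 higher for Kbu in starvation (8.49%, against 7.69% of the leaf regions tested). A score of at least 100 gave 63 higher for H3K9ac in starvation (12.1%, background 17.0%). The cause of these moves was not tested.

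With the replicates of each H3K9ac group summed, chosen after seeing the data, H3K9ac in submergence had 54 higher and 145 lower. The interactions then had 13 higher and 52 lower for H3K9ac against Kbu in starvation, 5 and 38 for H3K9ac against Kbu in submergence, 79 lower for H3K9ac against Kcr in starvation, and 6 higher and 59 lower for H3K9ac against Kcr in submergence. With summed tags as library sizes 21 were higher for H3K9ac against Kbu in submergence (3.14%, background 2.48%).

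At a score of at least 100 the shares with a seedling peak were 71.8% (H3K9ac), 82.3% (Kbu) and 76.9% (Kcr), and 46.4%, 46.3% and 39.7% at an overlap of 50% of the leaf region. It was 87.1%, 91.0% and 91.5% with replicate 1 alone and 88.3%, 92.2% and 92.1% with replicate 2 alone.

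Leaving out 1 replicate gave 60 to 96 higher for H3K9ac in starvation, 75 to 101 higher for H3K9ac in submergence, 55 to 79 higher and 122 to 188 lower for Kbu in starvation, 14 to 52 higher and 46 to 61 lower for Kbu in submergence, 8 to 11 higher and 10 to 23 lower for Kcr in starvation, and 4 to 7 higher and 5 to 13 lower for Kcr in submergence. The counts of Kbu and Kcr calls moved by over 1.5 times for most left-out libraries, controls included. The count of H3K9ac rises moved as far without replicate 2 of starvation or of submergence. The lone library left was assumed to vary like the other groups.

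Libraries of the same number shared only that number, with correlations of their deviations between -0.14 and 0.22. With the replicate block 99 were higher (14.2%, background 19.1%) and 275 lower (39.5%, background 21.5%) for H3K9ac in starvation. Kcr had 15 higher (1.76%, background 0.598%) and 28 lower (3.28%, background 1.02%) in starvation, and 9 and 9 in submergence. The crossed pairing for Kcr in starvation, added after seeing the data, gave 39 higher (4.57%, background 1.92%) and 65 lower (7.61%, background 2.83%). Distances to gene starts and motifs were not run. The tested ZT6-highest regions had a median of 99 and 116 tags in the H3K9ac starvation libraries against 209 and 238 in the control libraries.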
